A study of Mus musculus with 16 samples.

Results

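Collagens, laminins and the proteins that bind them were described in adult mouse retina and newborn mouse cortex, 2 tissues measured on 1-colour oligonucleotide arrays at 2 sites. The members were the genes whose probe sets the platform annotation gives a single symbol of a collagen chain (Col) or a laminin chain (Lama, Lamb or Lamc), or Nid1, Nid2, Hspg2, Fn1 or Sparc. The rule found 45 of the 8251 genes with such a probe set, measured by 63 of 12422 probe sets, and each gene was represented by its probe set with the highest mean over the 16 arrays. By type they were 5 fibrillar collagens, 7 collagens of cartilage, 7 collagens of basement membranes, 9 laminin chains, 3 genes of the nidogens and perlecan, fibronectin with Sparc, and 12 other collagens. The retina RNA was a pool from 350 adult C57/B6 mice, and the cortex RNA a pool from 19 mice at postnatal day 1, whose strain the design text names as Swiss-Webster and the descriptions of its arrays as C57/B6. About 10 µg of total RNA went into each labelling. The first site ran 5 arrays of each tissue and site 2 ran 3 of each, to measure how far values vary within the platform and between sites. All arrays of a tissue were aliquots of the pool, so every error and p-value here measures technical spread. Tissue and age differ together, as may strain, and cannot be told apart.

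Basement membranes are thin sheets on which epithelia, endothelia and glia rest. Laminin trimers of an alpha, a beta and a gamma chain and trimers of type IV collagen form separate networks in them, and nidogens and the heparan sulphate proteoglycan perlecan (Hspg2) link the networks. In the eye they include the inner limiting membrane of the retina and the sheet under the pigment epithelium, in the brain the sheet under the pia, and in both the sleeve around each blood vessel. The collagens counted here as fibrillar (types I, III and V) form the fibres of connective tissue such as meninges and vessel walls. The collagens named for cartilage (types II, IX and XI) also build the gel of the vitreous body. Types II and XI form fibrils too and are counted here with cartilage only.

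The deposited intensities differed in brightness between arrays, with medians from 45.7 to 216, and were scaled to a median of 100 on every array; all levels below are such scaled intensities. A level at or under the brightest of 13 probe sets for bacterial and yeast sequences on the same array is said to be at or under the no-target level, which lay between 12.6 and 37.0. Within groups the correlation between arrays was 0.981 to 0.992 except in cortex at site 2, where pairs with replicate 2, the dimmest array, went down to 0.955. Differences are retina minus cortex on the log2(scaled intensity + 16) scale, where the change of dim genes comes out too small, with their standard error and the adjusted p of limma (Benjamini-Hochberg over all 12422 probe sets, two-sided); a gene passed at an adjusted p under 0.05. All 7 photoreceptor markers measured were higher in retina, and all 5 markers of newborn cortex neurons were lower, at both sites. Of the 45 genes, 23 were above the no-target level on all 16 arrays, and 3, Col4a3, Col4a4 and Col22a1, on no array.

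More of these genes were lower in retina than higher. At the first site 23 of the 45 were lower and 4 higher, where 25.6% and 22.3% of all probe sets were, and 48.0% passed in either direction. At site 2, 19 were lower and 5 higher, beside 15.8% and 16.7% of all probe sets, and 32.5% in either direction. The median difference of the 45 genes was -0.38 and -0.51 at the sites, against -0.02 and -0.03 over all probe sets. A difference of at least 2-fold on that scale was called lower for 10 and 13 genes, beside 7.78% and 8.27% of all probe sets, and higher for 1 and 2, beside 7.03% and 8.48%. The arrays of retina lay wholly below those of cortex for 22 genes at each site, beside 20.9% and 24.4% of all probe sets, and wholly above for 1 and 6, beside 18% and 23.1%. The 6 include Col4a4, whose values were all at or under the no-target level. Lower at both sites were 18 genes: Col1a1, Col3a1, Col5a1, Col5a2, Col11a1, Col9a3, Col15a1, Col4a1, Col4a2, Lama2, Lama4, Lamb1, Hspg2, Nid2, Fn1, Col26a1, Col6a2 and Col6a3; of all probe sets 13.7% were. Higher at both were 3, Col9a1, Sparc and Col7a1, beside 14% of all probe sets, and no gene was called in opposite directions. Without the scaling, 6 genes passed at site 2, all lower: Col3a1, Col5a2, Col4a1, Lama2, Nid2 and Col6a3. At the first site 22 passed without it, and the calls of Col5a1, Col9a2, Col18a1, Sparc and Col8a1 were lost (limma adjusted p of 0.054 to 0.19).

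**Figure D1:**
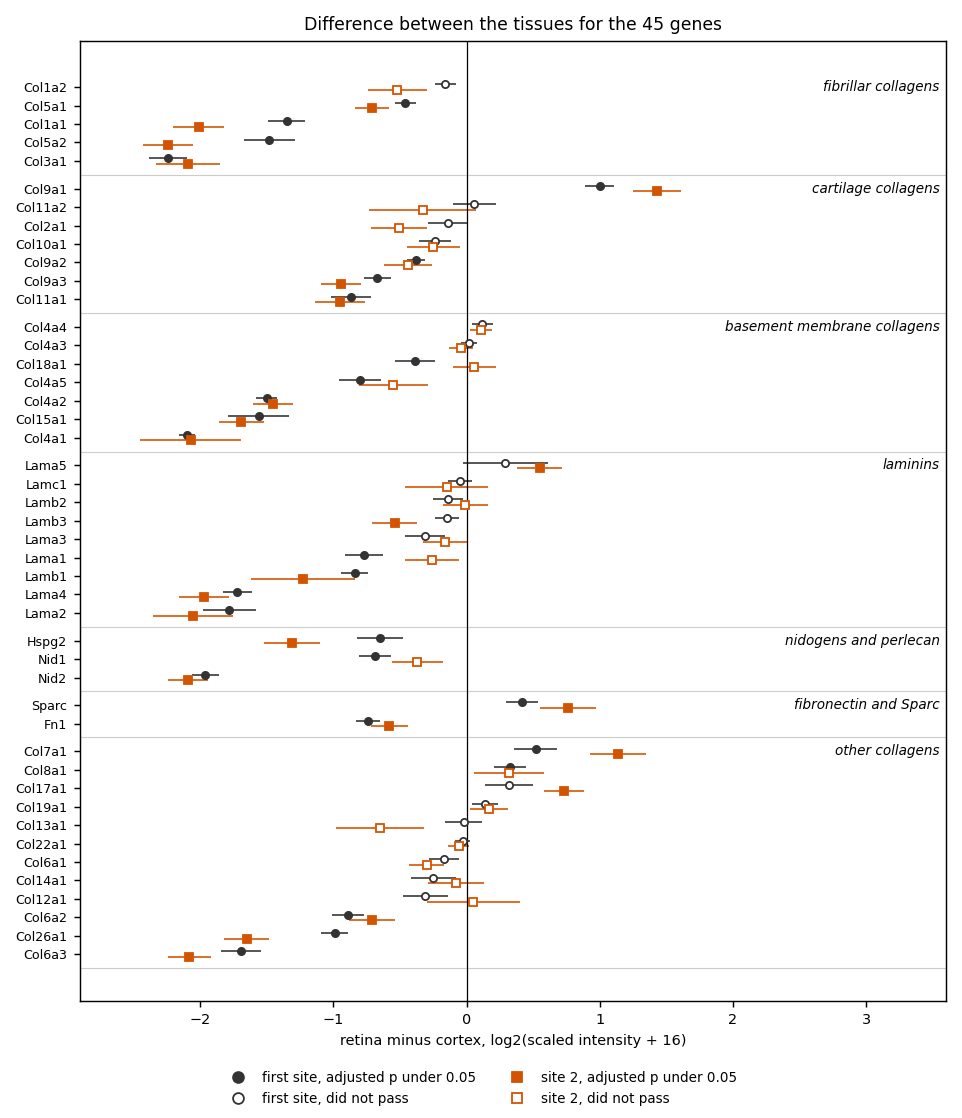
Difference between retina and cortex for each of the 45 genes, on the log2(scaled intensity + 16) scale (horizontal axis), at the first site (circles, 5 arrays against 5) and at site 2 (squares, 3 against 3); bars are 1 standard error and filled symbols passed the test. Most filled symbols lie left of 0, and Col9a1, Sparc and Col7a1 lie to the right at both sites.

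**Figure D2:**
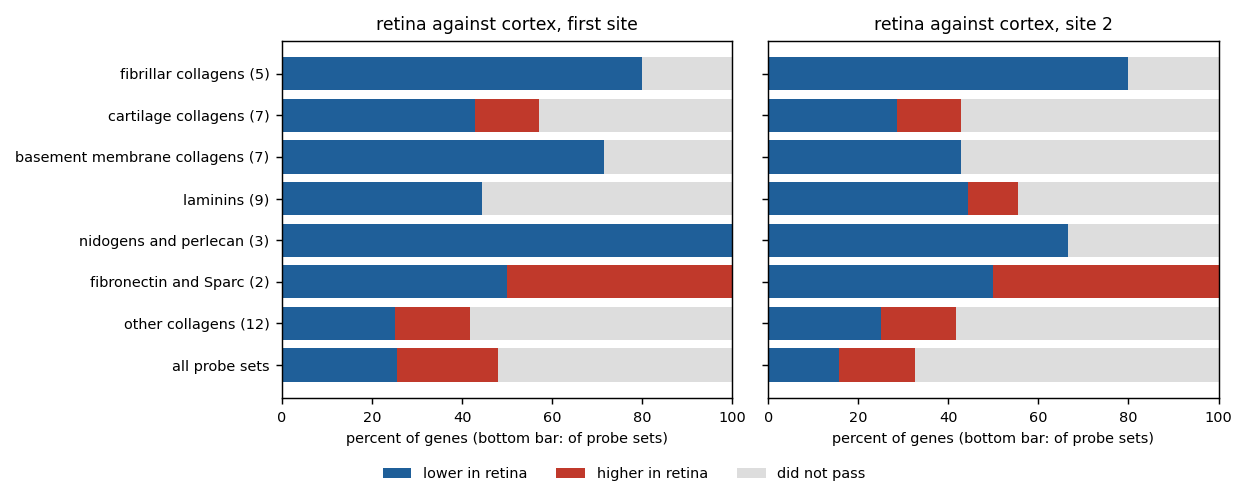
Percent of the genes of each type that were lower (blue), higher (red) or did not pass (grey) in retina against cortex at each site, with all probe sets in the bottom bar and the number of genes in brackets. The fibrillar collagens have 4 of 5 genes lower at both sites, while the other collagens have 3 of 12 lower and 2 of 12 higher. Of all probe sets 25.6% were lower and 22.3% higher at the first site, and 15.8% and 16.7% at site 2.

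The fibrillar collagens, grouped here as types I, III and V, were the type with the lowest median difference at the first site, -1.35, and had -2.01 at site 2. At each site 4 of the 5 were lower, beside 25.6% and 15.8% of all probe sets. Col3a1 encodes the single chain of type III collagen, found with type I in vessel walls and meninges. It read 8.15, 6.63, 14.3, 14.7 and 12.4 on the retina arrays of the first site, all at or under the no-target level, and 114, 92.0, 97.6, 132 and 130 on the cortex arrays. At site 2 it read 24.3, 23.8 and 36.0 in retina and 140, 235 and 149 in cortex. No retina array reached a cortex array at either site: the differences were -2.24 ± 0.14 (limma adjusted p = 1.8e-08), at least 4.66-fold lower against the no-target level, and -2.09 ± 0.24 (adjusted p = 0.00061). Both other probe sets of Col3a1 were also lower, by -0.95 and -1.38 at the first site and -1.27 and -1.43 at site 2. Both were at or under the no-target level on every retina array. The one with -0.95 was above it on only 1 of the 5 cortex arrays of the first site. Its promoter in RefSeq (assembly GRCm38.p6, chr1:45311288-45311587, plus strand, 250 bases before the start to 50 after) is shown for its letters TATAAA, in capitals. Their first base lies 117 bases before the start (position -117). Among the matched promoters of types I, III and V it is the only one with these letters.

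Col3a1: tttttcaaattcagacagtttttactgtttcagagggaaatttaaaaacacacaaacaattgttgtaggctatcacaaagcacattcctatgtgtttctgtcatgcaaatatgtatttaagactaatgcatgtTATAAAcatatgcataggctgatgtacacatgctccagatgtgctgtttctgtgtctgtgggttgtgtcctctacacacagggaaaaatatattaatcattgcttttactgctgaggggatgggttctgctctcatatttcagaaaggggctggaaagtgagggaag

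RefSeq promoters were found for 30 of the 45 genes, 34 in all. The letters TATAAA, on either strand, stood in 14.7% of the 34, in Col3a1, Col10a1, Col11a2, Col13a1 and Col17a1, and in 13.6% of all 32851 promoters of that length. The letters CCAAT stood in 32.4% against 37.4% of all, and GGGCGG in 52.9% against 35.7%, each on either strand; none of the 3 motifs contains another, and the counts describe letters, not binding.

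Col1a1 and Col1a2 encode the chains of type I collagen. Col1a1 read 105, 146, 167, 222 and 154 in retina and 439, 432, 410, 390 and 421 in cortex at the first site. At site 2 it read 103, 107 and 110 in retina and 403, 646 and 419 in cortex. The groups did not overlap, with differences of -1.35 ± 0.14 (limma adjusted p = 2.5e-06) and -2.01 ± 0.19 (adjusted p = 0.00027). A second probe set of Col1a1 gave larger differences, -3.09 ± 0.19 (adjusted p = 1.3e-08) and -3.17 ± 0.15 (adjusted p = 1.3e-05), from 6.43 to 33.1 on the 8 retina arrays and 237 to 407 on the 8 cortex arrays.

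Col1a2 gave different results with its 2 probe sets. The one with the highest mean read 625, 757, 691, 732 and 891 in retina and 842, 831, 790, 809 and 836 in cortex at the first site, and 379, 315 and 371 against 372, 705 and 518 at site 2. The tissues overlapped at both sites, and neither difference passed, at -0.16 ± 0.08 (limma adjusted p = 0.12) and -0.52 ± 0.22 (adjusted p = 0.13). The difference passed at the first site without retina replicate 5 (-0.23, adjusted p = 0.0087) and at site 2 without cortex replicate 1 (-0.74, adjusted p = 0.025). The other probe set read 11.2, 11.0, 11.8, 10.6 and 8.99 in retina and 360, 281, 364, 312 and 276 in cortex at the first site, and 9.01, 8.35 and 8.29 against 248, 167 and 212 at site 2. All its retina values were at or under the no-target level. It was at least 13.2-fold dimmer in retina at the first site (adjusted p = 1.8e-11) and at least 12.1-fold dimmer at site 2 (adjusted p = 3.4e-05). The choice of the brightest probe set therefore decides whether Col1a2 counts among the genes that passed.

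Col5a1 and Col5a2 encode type V collagen chains, which set the width of type I fibres. Col5a2 read 24.3, 8.78, 27.5, 14.4 and 29.2 in retina and 78.4, 91.2, 95.4, 101 and 61.0 in cortex at the first site, and 15.7, 23.1 and 16 against 141, 174 and 126 at site 2. Retina lay below cortex on every array, by -1.48 ± 0.19 (limma adjusted p = 1.7e-05) and -2.24 ± 0.19 (adjusted p = 0.00016). Above the no-target level were 2 of its 5 retina values from the first site and 2 of the 3 from site 2. Col5a1 was lower by a smaller amount, with means of 333 ± 30.3 (SD, n = 5) and 465 ± 45.4 at the first site and 184 ± 15.1 (n = 3) and 311 ± 23.3 at site 2. The differences were -0.46 ± 0.08 (adjusted p = 0.00032) and -0.71 ± 0.13 (adjusted p = 0.0045). The other Col5a1 probe set was at or under the no-target level on every retina array. In cortex it was above that level on 1 of the 5 arrays of the first site and on all 3 of site 2. It was lower at the first site (-0.43, limma adjusted p = 0.0033) and did not pass at site 2 (-0.78, adjusted p = 0.054). Col3a1 and Col5a2 are neighbours among the protein-coding genes of mouse chromosome 1.

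**Figure D3:**
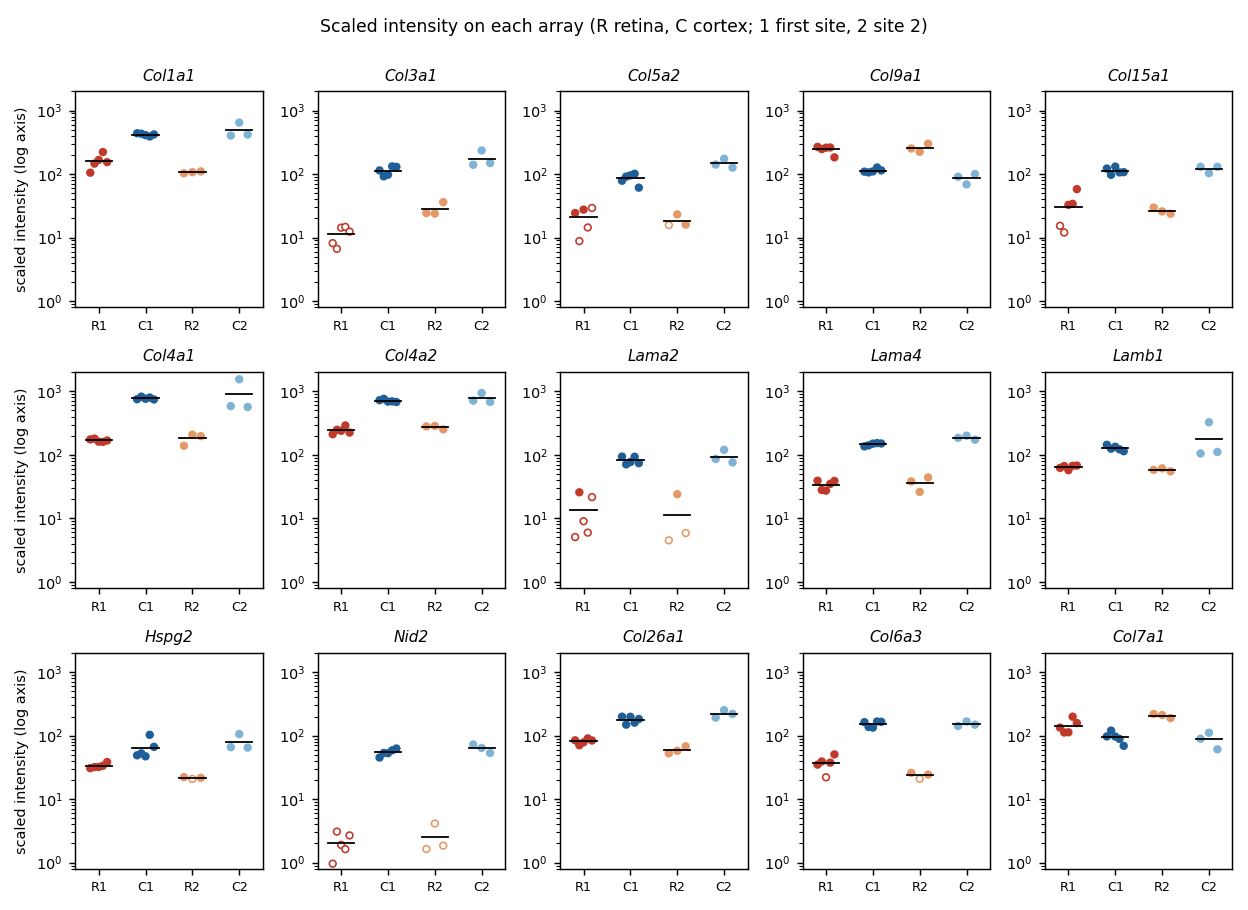
Scaled intensity (log axis) on each array for the 15 genes with a called difference of at least 2-fold on the log2(scaled intensity + 16) scale at either site; R is retina, C cortex, 1 the first site and 2 site 2, open circles are at or under the no-target level, and lines are group means. Col9a1 and Col7a1 sit higher in retina and the other 13 lower, and Nid2 in retina reads between 0.962 and 4.13.

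**Figure D4:**
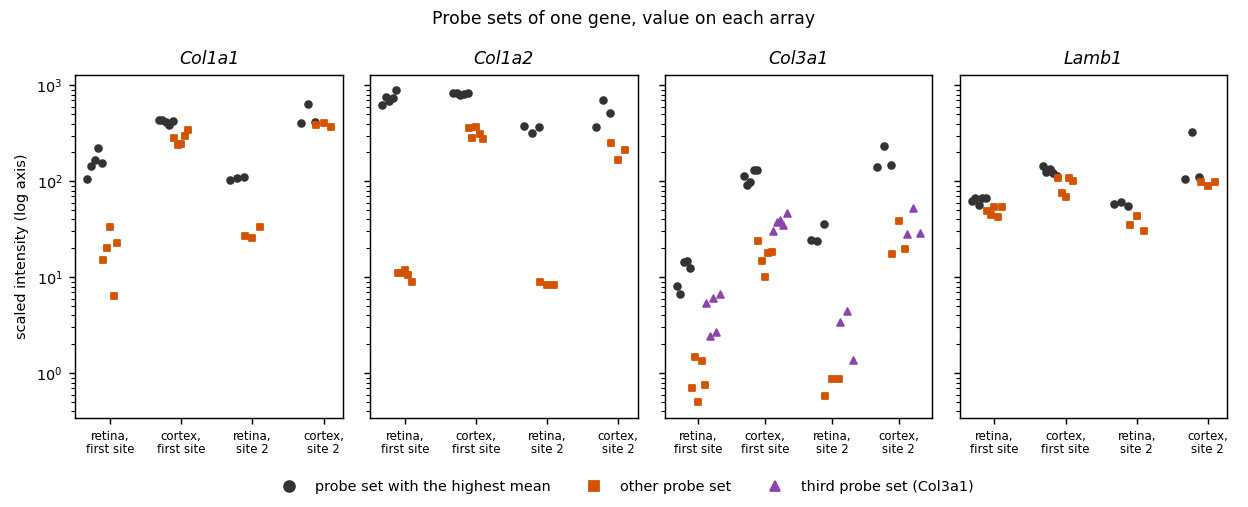
Scaled intensity (log axis) on each array for the probe sets of Col1a1, Col1a2, Col3a1 and Lamb1, with the probe set of the highest mean as circles and the others as squares and triangles. For Col1a2 the circles of both tissues lie close together while the squares read 8.29 to 11.8 in retina and 167 to 364 in cortex.

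The type IV chains Col4a1 and Col4a2, which together form the collagen network of nearly every basement membrane, were lower in retina at both sites. Their genes stand head to head on mouse chromosome 8, with starts 21 bases apart. The starts are 11312826 for Col4a1, on the minus strand, and 11312805 for Col4a2, on the plus strand. By these starts each gene reads across the start of the other, with no gap between them. Both RefSeq promoter windows (GRCm38.p6) are shown because the genes share the region and moved together. The window of Col4a1 is chr8:11312777-11313076 on the minus strand and that of Col4a2 is chr8:11312555-11312854 on the plus strand. The capitals mark the 78 bases, from 11312777 to 11312854, that both windows hold, each read on its own strand.

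Col4a1: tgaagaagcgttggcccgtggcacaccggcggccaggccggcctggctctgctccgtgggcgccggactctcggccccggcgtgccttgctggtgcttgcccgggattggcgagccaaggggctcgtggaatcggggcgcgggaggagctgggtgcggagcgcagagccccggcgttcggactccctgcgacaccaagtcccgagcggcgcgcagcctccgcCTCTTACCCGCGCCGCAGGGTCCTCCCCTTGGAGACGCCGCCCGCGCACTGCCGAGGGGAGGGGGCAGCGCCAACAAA
Col4a2: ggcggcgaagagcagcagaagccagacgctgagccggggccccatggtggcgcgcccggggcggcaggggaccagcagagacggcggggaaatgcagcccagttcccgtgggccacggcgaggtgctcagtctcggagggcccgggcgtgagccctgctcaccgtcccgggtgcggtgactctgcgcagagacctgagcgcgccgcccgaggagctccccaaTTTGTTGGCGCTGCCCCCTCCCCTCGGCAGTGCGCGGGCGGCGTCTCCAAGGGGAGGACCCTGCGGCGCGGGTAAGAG

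Neither window holds TATAAA, and both hold CCAAT, first read 32 bases before the start of Col4a2 (position -32) and on the opposite strand at position -145 of Col4a1. Col4a1 read 175, 180, 161, 160 and 168 in retina and 752, 825, 763, 799 and 745 in cortex at the first site. At site 2 it read 139, 208 and 197 in retina and 586, 1550 and 567 in cortex. The tissues did not overlap, with differences of -2.10 ± 0.06 (limma adjusted p = 6.6e-12) and -2.07 ± 0.38 (adjusted p = 0.0055). Cortex replicate 2 of site 2 stood far above the other cortex arrays, and without it the site 2 difference was -1.60 (adjusted p = 0.00015).

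Col4a2 read 211, 248, 239, 290 and 224 in retina and 725, 763, 689, 695 and 679 in cortex at the first site, and 281, 285 and 252 against 714, 942 and 681 at site 2. It was lower in retina by -1.5 ± 0.08 (limma adjusted p = 3.1e-09) and -1.45 ± 0.15 (adjusted p = 0.00038), again with no overlap. Col4a5, a chain of the type IV network in kidney and eye among other tissues, had means of 22 ± 7.15 and 49.3 ± 8.06 at the first site. It was lower there (-0.80 ± 0.16, adjusted p = 0.00074) and did not pass at site 2 (-0.55 ± 0.26, adjusted p = 0.16), where it passed without cortex replicate 2 (-0.80, adjusted p = 0.012). Col4a3 and Col4a4, neighbours on chromosome 1 whose chains form the network of the kidney glomerulus, had group means of 2.17 to 7.59 and stayed at or under the no-target level.

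Col15a1 and Col18a1 encode the collagens of basement membrane zones that carry sugar chains and release endostatin-like fragments. Col15a1 read 15.3, 12.0, 32.7, 33.9 and 57.8 in retina and 122, 97.2, 131, 106 and 107 in cortex at the first site. At site 2 it read 29.6, 25.8 and 23.7 against 130, 103 and 130. Each cortex array was above each retina array, and the differences were -1.56 ± 0.23 (limma adjusted p = 7.3e-05) and -1.69 ± 0.17 (adjusted p = 0.00038). Col18a1 was called lower at the first site (-0.39 ± 0.15, adjusted p = 0.046) and not at site 2 (0.06 ± 0.16, adjusted p = 0.82). Its 5 probe sets disagreed: 1 of the other 4 was higher at the first site (0.77 ± 0.22, adjusted p = 0.0099), and the mean of all 5 was higher there too (0.24, adjusted p = 0.039). At site 2 another was higher (1.11 ± 0.33, adjusted p = 0.04), with no overlap between the tissues. The first-site call was also lost without any 1 of 4 retina arrays (replicates 1, 2, 3 and 5) or 3 cortex arrays (replicates 2, 3 and 5), with values of -0.26 to -0.41 and adjusted p of 0.057 to 0.10, with an added value of 50 (-0.34, adjusted p = 0.051) and with no intensity trend (adjusted p = 0.056).

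Among the laminins the chains differed. Each site had 4 of 9 lower, beside 25.6% and 15.8% of all probe sets. Of the 4 chains, 3 were shared: Lama2, Lama4 and Lamb1. Lama2 encodes the alpha chain of laminin in muscle and in the brain's vascular and pial sheets. It read 5.07, 25.7, 9.01, 5.95 and 21.6 in retina and 93.9, 70.8, 77.0, 93.3 and 73.8 in cortex at the first site, and 4.50, 24.0 and 5.85 against 86.2, 120 and 76.1 at site 2. Only 1 retina array at each site, the 25.7 and the 24.0, was above the no-target level, and all cortex arrays were. The differences were -1.78 ± 0.20 (limma adjusted p = 5e-06) and -2.05 ± 0.30 (adjusted p = 0.0019).

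Lama4 encodes an alpha chain of endothelial basement membranes. It read 39.1, 27.9, 27.3, 34.9 and 38.8 in retina and 136, 141, 150, 153 and 151 in cortex at the first site, and 38.1, 26.1 and 44.0 against 185, 200 and 173 at site 2. The groups were well apart, by -1.72 ± 0.11 (limma adjusted p = 2.5e-08) and -1.97 ± 0.19 (adjusted p = 0.00027). Its other probe set was at or under the no-target level on all 16 arrays and could show no difference.

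Lamb1 encodes a beta chain found in most laminins. It read 62.2, 66.7, 57.3, 67.2 and 67.7 in retina and 144, 125, 134, 122 and 114 in cortex at the first site, where it was lower by -0.84 ± 0.10 (limma adjusted p = 8.2e-06). At site 2 it read 58.0, 61.2 and 55.0 in retina and 105, 326 and 111 in cortex, with replicate 2 again the high cortex array. The site 2 difference was -1.23 ± 0.39 (adjusted p = 0.049); without cortex replicate 2 it was -0.74 (adjusted p = 0.0051), and without any 1 of the 3 retina arrays (values of -1.20 to -1.26) it did not pass (adjusted p of 0.12 to 0.13), nor with an added value of 50 (-0.96, adjusted p = 0.068), quantile normalization (-1.10, adjusted p = 0.061) or no intensity trend (adjusted p = 0.053). The second probe set of Lamb1 was lower at both sites, by -0.72 ± 0.14 (adjusted p = 0.00061) and -1.10 ± 0.18 (adjusted p = 0.0028).

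For Lamc1 and Lamb2 no difference passed. Lamc1, the gamma chain of most laminins, had means of 224 ± 23.4 (SD, n = 5) for retina and 233 ± 24.3 for cortex at the first site, and 154 ± 70.7 (n = 3) and 161 ± 9.41 at site 2, where the retina arrays ran from 83.1 to 225. Neither difference passed (-0.05 ± 0.09, limma adjusted p = 0.67, and -0.15 ± 0.31, adjusted p = 0.76). The other Lamc1 probe set was at or under the no-target level on every array of both tissues and could show no difference. Lamb2, the beta chain of synaptic and retinal laminins, had means of 51.4 ± 2.36 and 58.6 ± 7.39 at the first site and 56.6 ± 4.42 and 57.3 ± 6.69 at site 2 and did not pass (-0.14 and -0.01). Lama1, the alpha chain of the earliest embryonic laminin and of the inner limiting membrane, was lower at the first site (45.3 ± 7.22 against 89.3 ± 17.5, -0.77 ± 0.14, adjusted p = 0.00042) and did not pass at site 2 (-0.26 ± 0.20, adjusted p = 0.38).

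Lama5, the broad epithelial and vascular alpha chain, was the one laminin called higher in retina, and only at site 2 (122 ± 13.3 against 78.1 ± 11.9, 0.55 ± 0.17, limma adjusted p = 0.046). That call was lost without any 1 of the 6 arrays other than cortex replicate 2 (values of 0.46 to 0.65, adjusted p of 0.05 to 0.16), with the replicate block (adjusted p = 0.1), in 1 fit over all arrays (adjusted p = 0.27) and with the mean of its probe sets (0.19, adjusted p = 0.54). Its other probe set did not pass at site 2 (-0.17, adjusted p = 0.76). Lama3 and Lamb3, chains of the laminin that anchors stratified epithelia, lay near the no-target level. Lama3 did not pass at the first site (-0.31, adjusted p = 0.098), where it passed without cortex replicate 1 (-0.40, adjusted p = 0.039) or 4 (-0.39, adjusted p = 0.05), nor at site 2 (-0.16). Lamb3 was called lower at site 2 (-0.54 ± 0.17, adjusted p = 0.044), where 1 of 6 arrays was above the no-target level, and the call was lost without any 1 of the 6 arrays other than cortex replicate 2 (-0.37 to -0.60, adjusted p of 0.062 to 0.15), with an added value of 50 (-0.24), with the 16 added before scaling (-0.66), with quantile normalization (-0.48) and with no intensity trend (adjusted p of 0.055 to 0.17). At the first site its difference of -0.15 passed without cortex replicate 2 (-0.22, adjusted p = 0.049).

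Of the linkers, nidogen 2 was the clearest. Nid2 read 0.962, 3.08, 1.90, 1.63 and 2.68 in retina and 45.2, 53.3, 52.9, 58.7 and 62.7 in cortex at the first site, and 1.64, 4.13 and 1.85 against 72.6, 64.1 and 53.4 at site 2. All 8 retina values were at or under the no-target level and all 8 cortex values above it. It was at least 2.26-fold lower at the first site (-1.96 ± 0.10, limma adjusted p = 2e-09) and at least 3.68-fold lower at site 2 (-2.09 ± 0.15, adjusted p = 7.8e-05).

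Perlecan (Hspg2) read 30.7, 32.0, 32.1, 33.6 and 38.4 in retina and 49.0, 52.6, 47.2, 103 and 66.6 in cortex at the first site, and 22.2, 20.8 and 21.7 against 65.9, 106 and 64.9 at site 2. It was lower by -0.65 ± 0.17 (limma adjusted p = 0.0059) and -1.31 ± 0.21 (adjusted p = 0.0028), with no overlap between the tissues. Nid1 lay near the no-target level, above it on 1 of the 10 arrays at the first site and 1 of the 6 at site 2. It was lower at the first site (-0.69 ± 0.12, adjusted p = 0.00022) and did not pass at site 2 (-0.37 ± 0.19, adjusted p = 0.18), where it passed without cortex replicate 2 (-0.53, adjusted p = 0.029).

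Fibronectin and Sparc moved in opposite directions. Fn1, the adhesive glycoprotein of early matrix and vessel walls, read 159, 189, 159, 174 and 200 in retina and 313, 353, 303, 277 and 275 in cortex at the first site, and 263, 259 and 240 against 333, 458 and 378 at site 2. Retina was below cortex on every array (-0.74 ± 0.09, limma adjusted p = 1.2e-05, and -0.58 ± 0.14, adjusted p = 0.019). The site 2 call was lost without any 1 retina array or cortex replicate 3 (-0.54 to -0.60, adjusted p of 0.052 to 0.077).

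Sparc, a secreted glycoprotein that binds collagen, read 459, 603, 435, 584 and 416 in retina and 385, 304, 319, 435 and 397 in cortex at the first site, and 758, 934 and 1060 against 657, 395 and 577 at site 2. The tissues overlapped at the first site, through cortex replicate 4, and not at site 2. Sparc was higher in retina by 0.42 ± 0.12 (limma adjusted p = 0.012) and 0.76 ± 0.21 (adjusted p = 0.032). The site 2 call was lost without retina replicate 2 or 3 or cortex replicate 3 (0.65 to 0.82, adjusted p of 0.059 to 0.12), and with quantile normalization (0.65, adjusted p = 0.061). The first-site call was lost without scaling (0.51, adjusted p = 0.054).

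The collagens named for cartilage held both directions, and the chains of type IX collagen, which decorate type II fibrils in cartilage and vitreous, parted. Col9a1 read 268, 247, 260, 262 and 183 in retina and 109, 106, 110, 127 and 114 in cortex at the first site, and 253, 224 and 301 against 90.8, 68.7 and 100 at site 2. Every retina array was above every cortex array (1.00 ± 0.11, limma adjusted p = 3e-06, and 1.43 ± 0.18, adjusted p = 0.001). The partner chains were lower: Col9a3 had means of 155 ± 16.5 and 256 ± 33.3 at the first site and 189 ± 20.8 and 379 ± 51.7 at site 2 (-0.67 ± 0.10, adjusted p = 8.6e-05, and -0.94 ± 0.15, adjusted p = 0.0025). A second Col9a3 probe set was above the no-target level on 1 of the 16 arrays and could show little. Col9a2 was lower at the first site (151 ± 11.0 against 201 ± 8.40, -0.38 ± 0.07, adjusted p = 0.00075) and did not pass at site 2 (-0.44 ± 0.18, adjusted p = 0.10), although its arrays did not overlap at either.

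RefSeq (GRCm38.p6) gives Col9a1 transcription starts 17593 bases apart on mouse chromosome 1, and the probe set does not tell which was used. Both promoters are shown because Col9a1 was the one cartilage collagen higher in retina: chr1:24177360-24177659 for the upstream start and chr1:24194953-24195252 for the downstream start, both on the plus strand. Capitals mark CCAAT, which the downstream window holds 18 bases before the start (position -18); the upstream window holds neither CCAAT nor TATAAA.

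Col9a1 upstream start: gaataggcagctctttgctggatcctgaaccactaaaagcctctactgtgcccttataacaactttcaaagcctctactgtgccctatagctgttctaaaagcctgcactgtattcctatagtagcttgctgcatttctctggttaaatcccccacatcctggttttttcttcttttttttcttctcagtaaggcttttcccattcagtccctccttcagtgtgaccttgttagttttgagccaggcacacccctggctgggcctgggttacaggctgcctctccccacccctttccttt
Col9a1 downstream start: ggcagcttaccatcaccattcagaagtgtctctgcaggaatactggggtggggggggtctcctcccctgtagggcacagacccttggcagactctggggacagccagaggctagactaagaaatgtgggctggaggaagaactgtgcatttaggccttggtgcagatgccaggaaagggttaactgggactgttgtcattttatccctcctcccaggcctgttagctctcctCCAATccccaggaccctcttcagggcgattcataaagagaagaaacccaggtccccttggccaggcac

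Col19a1, the neighbour of Col9a1 among the protein-coding genes of chromosome 1, encodes a minor collagen of basement membrane zones and did not pass at either site (0.14 and 0.17, limma adjusted p = 0.31 and 0.41). Col11a1, a chain of the thin fibrils of cartilage and vitreous, was lower at both sites (41.7 ± 9.05 against 89.8 ± 18, -0.87 ± 0.15, adjusted p = 0.00032, and 27.3 ± 4.80 against 67.7 ± 11.3, -0.95 ± 0.19, adjusted p = 0.007). Col2a1, the main collagen of cartilage and vitreous, had means of 35.7 ± 10.4 and 40.4 ± 4.62 at the first site and 18.6 ± 5.11 and 33.8 ± 11.8 at site 2. The differences, -0.14 (adjusted p = 0.46) and -0.51 (adjusted p = 0.11), did not pass. Col10a1, the collagen of growth cartilage, and Col11a2 lay near the no-target level and did not pass (-0.24 and -0.25, and 0.06 and -0.33).

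Of the 12 other collagens, 3 were lower and 2 higher at each site. Of all probe sets 25.6% were lower and 22.3% higher at the first site, and 15.8% and 16.7% at site 2. Type VI collagen forms beaded filaments next to basement membranes. Its chain Col6a3 read 34.9, 39.2, 22.1, 37.6 and 50.6 in retina and 163, 137, 134, 167 and 165 in cortex at the first site, and 26.0, 20.9 and 24.4 against 142, 167 and 149 at site 2. It was lower with no overlap (-1.69 ± 0.15, limma adjusted p = 4.6e-07, and -2.08 ± 0.16, adjusted p = 0.00011). Col6a2 was lower too (72.3 ± 11.1 against 147 ± 15.5, -0.89 ± 0.12, adjusted p = 2.6e-05, and 75.0 ± 12.1 against 133 ± 12.1, -0.71 ± 0.17, adjusted p = 0.018), with the site 2 call lost without retina replicate 2 (-0.60, adjusted p = 0.072) or cortex replicate 3 (-0.66, adjusted p = 0.067). Its neighbour on chromosome 10, Col6a1, did not pass (297 ± 38.4 against 337 ± 45.6 at the first site, -0.17 and -0.30). The chains of 1 trimer were thus not all called.

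Col7a1, the collagen of the fibrils that anchor skin to its basement membrane, was higher in retina. It read 134, 112, 113, 199 and 158 in retina and 97.1, 120, 96.8, 88.8 and 69.1 in cortex at the first site, and 219, 211 and 189 against 89.3, 111 and 60.9 at site 2. The tissues overlapped at the first site, where retina replicates 2 and 3 lay under the highest cortex array, and not at site 2 (0.52 ± 0.16, limma adjusted p = 0.018, and 1.14 ± 0.21, adjusted p = 0.0053). Col26a1, a collagen with an EMI domain, read 84.4, 70.6, 78.5, 90.5 and 83.9 in retina and 199, 149, 198, 160 and 183 in cortex at the first site, and 52.7, 57.7 and 67.8 against 192, 252 and 220 at site 2. It was lower on every retina array (-0.99 ± 0.10, adjusted p = 3.4e-06, and -1.65 ± 0.17, adjusted p = 0.00035).

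Col8a1, a short-chain collagen of vessels and of the membrane behind the cornea, was called higher at the first site (0.33 ± 0.12, limma adjusted p = 0.039) and not at site 2 (0.32, adjusted p = 0.41). The first-site call was lost without any 1 of retina replicates 2 to 5 or cortex replicates 3 to 5 (0.27 to 0.34, adjusted p of 0.054 to 0.093), with the replicate block (adjusted p = 0.077) and in 1 fit over all arrays (adjusted p = 0.099), and at site 2 the gene passed without cortex replicate 2 (0.58, adjusted p = 0.027). Col17a1, the membrane collagen of hemidesmosomes, was at least 1.56-fold higher in retina at site 2 (0.73 ± 0.15, adjusted p = 0.0077), with all cortex arrays at or under the no-target level, and did not pass at the first site (0.32, adjusted p = 0.17). Its site 2 call was lost with the 16 added before scaling (0.74, adjusted p = 0.13). Col12a1, Col13a1, Col14a1 and Col22a1 did not pass at either site, with differences from -0.31 to -0.02 at the first and -0.65 to 0.05 at site 2.

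The same RNA pools read at both sites gave a technical comparison. Within retina 11 of the 45 genes differed between site 2 and the first site, 5 higher and 6 lower, beside 23.9% and 13.9% of all probe sets, and 37.9% in either direction. Within cortex 8 differed, 6 higher and 2 lower, beside 11.7% and 7.65%, and 19.3% in either direction. The split in cortex was 2 higher and 3 lower with quantile normalization, and 2 and 2 with the 16 added before scaling. Col1a2 had the one difference of at least 2-fold, in retina, where 2.11% of all probe sets were lower by that much (739 ± 98.6 at the first site, n = 5, and 355 ± 34.9 at site 2, n = 3, -1.02 ± 0.15, limma adjusted p = 7.2e-05), and was lower at site 2 in cortex too (-0.66 ± 0.15, adjusted p = 0.0061). Col5a1 was lower at site 2 in both tissues (-0.80 and -0.55). Col3a1, Fn1, Sparc and Col19a1 were higher at site 2 in both: Sparc by 0.86 ± 0.17 (adjusted p = 0.00089) in retina and 0.52 ± 0.17 (adjusted p = 0.041) in cortex. The other calls were Col7a1 higher and Col1a1, Col2a1, Lamc1 and Col26a1 lower in retina, and Col5a2 and Col9a3 higher in cortex. The retina count fell to 6 and 7 without retina replicates 2 and 3 of site 2. The cortex count fell to 3 without cortex replicate 1 of the first site, and to 5 without retina replicate 1 or cortex replicates 2, 3 or 5 of the first site, or cortex replicates 1 or 3 of site 2.

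The size of the tissue difference was tested between the sites with the interaction of tissue and site, which 4.23% of all probe sets passed, 1.45% with a more negative difference at site 2. Of the 45 genes 1 passed, Col26a1, whose difference changed by -0.67 ± 0.18 from the first site to site 2 (limma adjusted p = 0.048). The Col26a1 call was lost under 18 of 25 alternative settings, including 13 of the 16 in which 1 array was left out (-0.57 to -0.75, adjusted p of 0.055 to 0.11), those without retina replicate 2 or cortex replicate 3 of the first site or cortex replicate 1 of site 2 being the exceptions. For the other 44 genes no difference between the sites in the size of the tissue difference passed, which does not show that they were equal.

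Genes that make, hold and cut the matrix were counted on lists of the pathway, to be read beside the 25.6% of all probe sets lower and 22.3% higher at the first site and the 15.8% and 16.7% at site 2. Of 14 measured genes of collagen making and crosslinking, 8 (57.1%) were lower and 3 (21.4%) higher at the first site (median -0.46) and 5 (35.7%) and 3 at site 2 (median -0.18). Serpinh1, the collagen chaperone, was lower (114 ± 18.5 against 375 ± 32.1, -1.60 ± 0.11, limma adjusted p = 3.1e-08, and -1.07 ± 0.16, adjusted p = 0.0021), as was Bmp1, which trims procollagen (-2.01 ± 0.22, adjusted p = 3.7e-06, and -1.08 ± 0.14, adjusted p = 0.001). P4ha1, a prolyl hydroxylase, was higher (297 ± 23.7 against 95.0 ± 9.33, 1.5 ± 0.09, adjusted p = 8.8e-09, and 1.63 ± 0.13, adjusted p = 0.00011), as was Tll1, a relative of Bmp1 (0.50 and 1.20). Of 9 other basement membrane proteins 5 (55.6%) were lower at each site and 1 and 2 higher (medians -0.48 and -0.60). Agrn, the proteoglycan agrin, fell from 1580 ± 68.1 in cortex to 335 ± 31.9 in retina at the first site (-2.19 ± 0.07, adjusted p = 1.8e-11, and -2.00 ± 0.11 at site 2, adjusted p = 2.1e-05). Fbln2, a fibulin, was lower (-1.69 and -1.93), and Smoc1, a Sparc relative, was higher (0.29 and 0.55, the latter lost without retina replicate 1 (0.49, adjusted p = 0.061) or 3 (0.54, adjusted p = 0.06) of site 2).

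Of 17 matrix receptors 6 (35.3%) were lower and 4 (23.5%) higher at the first site (median -0.12), and 4 (23.5%) and 3 (17.6%) at site 2 (median -0.07), shares within 10 percentage points of those of all probe sets. Itga6, the alpha subunit of laminin-binding integrins, was at least 2.10-fold and at least 3.76-fold lower (limma adjusted p = 7.9e-05 and 0.0078). Ddr2, a receptor for fibrillar collagen, was lower (-0.79 and -1.22); the site 2 call was lost without any 1 retina array or cortex replicate 3 (-0.90 to -1.41, adjusted p of 0.051 to 0.095). Sdc4, a heparan sulphate syndecan, was higher (1.75 and 1.00), and Itgav was higher at the first site (1.24) and at site 2 did not pass (0.88, adjusted p = 0.14) unless cortex replicate 2 was left out (1.35, adjusted p = 0.00053). Of 19 proteases and inhibitors 5 (26.3%) were lower and 4 (21.1%) higher at the first site and 2 (10.5%) and 3 (15.8%) at site 2, near the shares of all probe sets, with medians of 0.01 at both. Mmp9, a gelatinase, was higher (185 ± 12.8 against 38.2 ± 18.6, 1.95 ± 0.19, adjusted p = 1.8e-06, and 2.03 ± 0.27, adjusted p = 0.0013), and Reck, an inhibitor on the cell surface, too (1.01 and 1.03). Mmp16 was at least 4.55-fold and at least 7.08-fold lower (adjusted p = 7.8e-09 and 3.6e-05). Timp2 was lower at the first site (-1.40) and at site 2 did not pass (-0.52, adjusted p = 0.42) unless cortex replicate 2 was left out (-1.07, adjusted p = 9.3e-05).

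In pools of whole tissue, fewer cells of a type and less RNA per cell cannot be told apart. Markers of fibroblasts of the meninges, which make fibrillar collagens, moved with the lower genes: 11 of 12 (91.7%) were lower in retina at the first site and 9 (75%) at site 2, none higher, against 25.6% and 15.8% of all probe sets. Their summed level was 807 to 905 on the retina arrays and 2280 to 2580 on the cortex arrays of the first site, and 976 to 1020 against 2340 to 2870 at site 2. On cortex replicate 2 of site 2 the sum was 2870, against 2470 and 2340 on the other cortex arrays there, and the sum of the newborn cortex neuron markers was 21900 against 10500 and 9910. On that array 28 of the 45 genes, Col4a1, Lamb1, Col1a1 and Col3a1 among them, read highest of the 3 cortex arrays, and 10, Col15a1, Col4a5, Lama1 and Nid1 among them, read lowest. That array was the dimmest before scaling, and whether all probe sets split in a like way on it was not tested. The defining markers Foxc1 and Aldh1a2 were at or under the no-target level in both tissues at the first site, and Ogn and Fmod in retina. Only 1 of the 12 fibroblast markers did not pass at the first site. The 11 called lower therefore include at least 1 that was above that level on no array of either tissue there. Of 9 markers of mural cells, which wrap vessels, 4 (44.4%) and 3 (33.3%) were lower and none higher, with sums of 286 to 351 and 464 to 574 at the first site and 314 to 371 and 520 to 588 at site 2; Myh11 and Cnn1 were at or under the no-target level in every group. Of 10 endothelial markers 6 (60%) were lower and 2 (20%) higher at each site, with sums of 1130 to 1370 and 1640 to 1820, and 1210 to 1390 and 1860 to 1900. The part of these cells in the lower levels was not tested.

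Markers of the lens and of the pigment epithelium moved the opposite way. Of 9 lens markers 6 (66.7%) were higher in retina at each site, beside 22.3% and 16.7% of all probe sets, and none lower, with sums of 1720 to 1950 against 603 to 754 at the first site and 2150 to 2670 against 512 to 577 at site 2, and Mip was at or under the no-target level in retina. Of 7 markers of pigment epithelium and choroid 5 (71.4%) were higher at each site and 1 and 0 lower, with sums of 1210 to 1420 against 588 to 773, and 1270 to 1510 against 698 to 865. Of 8 markers of astrocytes and Mueller glia, the latter cells of the retina itself, 5 (62.5%) and 3 (37.5%) were higher and 1 and 0 lower. Their part in the higher levels of Col9a1, Sparc and Col7a1 was not tested. Of 6 markers of cornea and conjunctiva none was higher and 1 and 0 lower, and Krt5 and Krt14 were at or under the no-target level in every group. Of 4 markers of cartilage and bone none passed at either site, and Matn1 and Hapln1 were at or under the no-target level in every group.

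**Figure D5:**
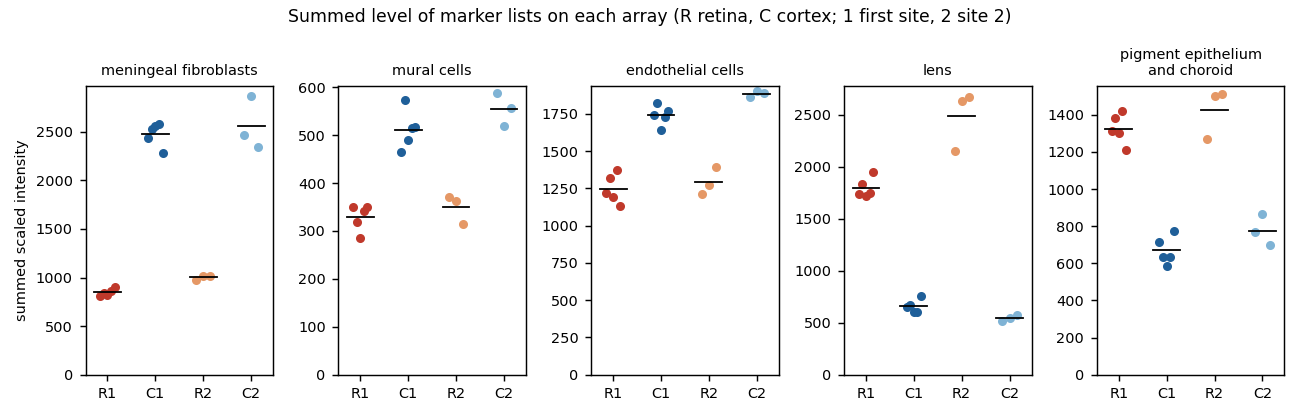
Summed scaled intensity of the markers of 5 cell types on each array (points; lines are group means; R retina, C cortex, 1 first site, 2 site 2), on axes that start at 0. Sums of fibroblast, mural and endothelial markers are lower in retina, with fibroblast markers at 807 to 1020 against 2280 to 2870, and sums of lens and pigment epithelium markers are higher.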

How the data were processed

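Retina and cortex RNA was measured on 16 one-colour arrays, and the deposited series table gives 1 linear intensity per probe set and array; how the authors summarised probes into these intensities is not given in the sources used here. Of 12488 probe sets, 66 controls were left out. Intensities were divided by each array's median, set to 100, 16 was added and log2 taken; the scaling came before the added 16 because arrays differ 4.73-fold in brightness. Of the probe sets tested, 10833 have 1 symbol in the platform annotation, 396 several and 1193 none here; 10817 of the first were found in the RefSeq table, as were all 45 members. Differences were tested with limma 3.58.1 in R 4.3.3 (lmFit, eBayes with an intensity trend, Benjamini-Hochberg adjustment over 12422 probe sets, threshold 0.05). The tissues were compared within each site, and sites and the interaction in 1 fit over 16 arrays. On simulated data, 50 of 51 bright probe sets (scaled intensity over 200 in cortex) changed at least 2-fold were recovered for the first-site comparison and 32 of 46 for that at site 2. These counts do not cover dimmer probe sets. Among those are Col3a1, Col5a2, Lama2, Hspg2 and Nid2, with cortex means of 54.6 to 113 at the first site. No 2 arrays held identical values, and the number of arrays limits the precision.

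Genes with every value given were those called at either site with a difference of at least 1 on the log2 scale, or called for the interaction; of each pathway list, up to 2 genes per direction with the largest called difference at the first site. Col1a2, Fn1 and Sparc are given in full in addition, chosen after their values were seen. A fold is given as at least N-fold where no array of the dimmer group exceeded the no-target level, its values being raised to that level. The members and lists were chosen with earlier results of these data known. Alternatives were other added values, no scaling, quantile normalization, a filter on dim probe sets, no trend, the replicate number as a block, averaging the probe sets of each gene, 1 fit over all arrays for the tissue comparisons, and leaving out each array. Replicate numbers did not pair the arrays: deviations of arrays with the same number correlated between -0.086 and 0.12 over probe sets.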

Additional observations from a re-analysis of the deposited data

Results flagged for a closer look

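Col9a1 read 183 on retina replicate 5 of the first site, apart from the other 4 retina arrays at 247 to 268. It was the one such array among 30 groups of 5 arrays tested, of which chance sets apart about 1 in 20.

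Col26a1 was the one gene of the 45 whose tissue difference was tested to differ between the sites, by -0.67 on the log2(scaled intensity + 16) scale (limma adjusted p = 0.048), with retina lower than cortex on every array at both sites.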

How the results depend on the processing

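The direction held, with more of the 45 genes lower than higher in retina, under every alternative at both sites. With probe sets above the median signal only, 13 genes of the 17 left passed at the first site (10 lower, 3 higher). At the other, 10 of 16 did (7 lower, 3 higher). Passing was common among all probe sets above the median too. Of these, the probe sets above the median of the 12422, 4373 passed at the first site (2282 lower, 2091 higher). At site 2, 3044 did (1321 lower, 1723 higher). Whether a larger share of the genes passed than of these probe sets was not tested. Without scaling 6 passed at site 2, and none passed between the sites in retina (0), in cortex (0) or for the interaction (0). For cortex between the sites the count was 5 with an added value of 1, 4 with the added value before scaling and 5 with quantile normalization. For the interaction it was 0 with an added value of 50, with the added value before scaling and with quantile normalization. The cause was not tested. Leaving out 1 array gave 25 to 28 genes at the first site, 18 to 27 at site 2, 6 to 11 for retina between the sites, 3 to 7 for cortex and 0 to 1 for the interaction.

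The replicate block, which rests on shared numbers only, gave 26 genes at the first site, 23 at site 2, 8 for retina between the sites, 4 for cortex and 0 for the interaction. Of 1588 values of single genes under alternatives, 1480 kept their side of the threshold, 93 lost the call and 14 gained one. Of the called differences 1 turned: Col18a1 at the first site, 0.24 with the mean of its probe sets. Turns were counted for called differences only: Col11a2, not called at site 2, went from -0.33 to 0.17 there without cortex replicate 2. Over all probe sets the calls at site 2 fell from 4033 to 781 without scaling. Levels near the no-target level limit Col4a3, Col4a4 and Col22a1, above it on no array, and also Nid1, Lama3, Lamb3, Col11a2, Col17a1 and the retina values of Col3a1, Lama2 and Nid2.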
